A study of Mus musculus with 47 samples.

Results

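Collagens are the main structural proteins of the extracellular matrix, and each collagen molecule is a trimer of like or unlike chains, with a gene for each chain. Fibrillar collagens (types I, III, V and others) form the banded fibres of connective tissue, type IV forms the sheet of the basement membrane, type VI forms beaded filaments, type VII anchors the basement membrane to the tissue beneath, and FACIT collagens (types IX, XII, XIV and others) sit on the surface of fibrils. In the intestine most of these chains are made by fibroblasts, smooth muscle and endothelium, while the epithelium rests on a basement membrane that holds type IV and the multiplexins XV and XVIII. The 41 collagen chains described here are the genes with a symbol of the form Col, number, a, number and a summed count of 50 or more over all 47 libraries, out of 24062 gene symbols counted. The rule dropped 3 of 44 such symbols, namely Col6a6 with 49 counts, Col26a1 with 25 and Col2a1 with 24. Just above it stood Col9a1 with 54 counts and Col11a1 with 93.

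Mice were 15 to 19 weeks old, and RNA was taken from their intestine and from intestinal organoids, which are cultures of gut epithelium. Adenomas and normal intestinal tissue (Min mucosa) were taken from mice with the APC min allele, a point mutation of a Wnt pathway tumour suppressor that a count per gene cannot check, and wild-type mucosa from mice without it. The backgrounds were C57BL/6 (B6), the F1 of C57BL/6 with the chromosome 5 consomic (C5F1), the consomic itself, C57BL/6 with the PWD chromosome 5 (C5), the F1 of C57BL/6 and PWD (B6xPWD) and, as wild-type mucosa alone, PWD/Ph (PWD). Each of the 13 tissue groups had 3 libraries. All organoids carried APC min, on B6 or C5, and were treated with 5-aza-cytidine (AZA), an inhibitor of DNA methyltransferases, or were controls, with 2 libraries in each of the 4 groups. Dose and duration are not given in the sources used here. The labels do not say whether replicates came from different mice or wells, and a p-value here speaks of the spread among these libraries, which may be technical.

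Gene counts ranged from 2726505 to 20070696 per tissue library and from 4389898 to 8373764 per organoid library, and the ribosomal precursor Rn45s took 16.4 to 72.7% of them in tissue and 0.76 to 1.61% in organoids. Levels are CPM, counts scaled to library size with TMM normalisation. Tissue and organoid libraries were scaled separately, so CPM of one are not on the scale of the other, except where a joint scale over all libraries is named. A library's values differ between its own scale and the joint one. Changes are log2 fold changes with their SE, and a gene was called where the adjusted p of edgeR's quasi-likelihood test was under 0.05. The filter on low counts, which a chain could also pass through the group where it was high, was passed by 30 of the 41 chains in tissue and by 22 in organoids. The fibroblast marker sum ran from 162 to 507 CPM in the libraries of B6, C5F1, C5 and B6xPWD tissue, and, on the organoid scale, from 28.2 to 41.8 CPM in control organoids, in which Thy1 and Pi16 were at 0. Bulk RNA cannot tell fewer cells of a type from less RNA per cell.

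Per kilobase of exon, the most abundant chains over all tissue libraries were Col6a1 at a mean level of 16.6 CPM per kb, Col4a1 at 16.2 and Col3a1 at 13.2. Col4a2 followed at 9.67 CPM per kb, Col6a2 at 6.87, Col6a3 at 6.35, Col18a1 at 5.63, Col1a1 at 5.00, Col6a4 at 4.33 and Col1a2 at 4.29. The order thus mixed beaded filament, basement membrane and fibrillar chains. In control organoids, on their own scale, the order was different, with Col18a1 at 0.290 CPM per kb first, then Col4a3 at 0.268, Col11a2 at 0.248, Col17a1, the transmembrane collagen of hemidesmosomes, at 0.203 and Col20a1 at 0.181. In the same order these levels rest on only 54, 78, 49, 40 and 27 counts over the 4 libraries. The lowest library of Col11a2 and of Col17a1 was at 0, so this order is uncertain. Summed over the 41 chains, collagen on the tissue scale reached 1500 ± 200 CPM in B6 adenoma, 1468 ± 185 in C5F1 adenoma, 964 ± 189 in C5 adenoma and 571 ± 171 in B6xPWD adenoma (SD, n = 3 each). For Min mucosa B6 had a sum of 827 ± 136 CPM, C5F1 one of 851 ± 231, C5 one of 978 ± 63.6 and B6xPWD one of 574 ± 195. The adenoma and Min mucosa libraries overlapped in this sum in C5 and B6xPWD, and each B6 and C5F1 adenoma library stood above each Min mucosa library of its background.

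Adenoma was set against Min mucosa to ask which chains mark tumour tissue. Over the mean of B6, C5F1, C5 and B6xPWD, 20 of the 30 chains tested were called (66.7%), 13 higher and 7 lower in adenoma, against 45.2% of all 13657 genes tested. Higher calls made up 23.7% and lower calls 21.5% of all genes. The median change was 0.23 over the chains and 0.01 over all genes. Higher in adenoma were 5 of 8 fibrillar chains tested, the main basement membrane pair Col4a1 and Col4a2, Col7a1, Col18a1 and 4 of 6 FACIT chains. Lower were the second basement membrane pair Col4a5 and Col4a6, 2 of 5 beaded filament chains, Col8a2, Col14a1 and Col23a1. Among the higher chains, Col9a3, Col9a2 and Col7a1 passed the filter on low counts through adenoma, where they were high. Their calls, and the share of chains called, are thus not independent of the filter. Same-numbered adenoma and Min mucosa libraries deviated together, so directions are also given over 12 same-numbered pairs. This pairing is inferred, as the labels do not say what a number marks.

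**Figure D1:**
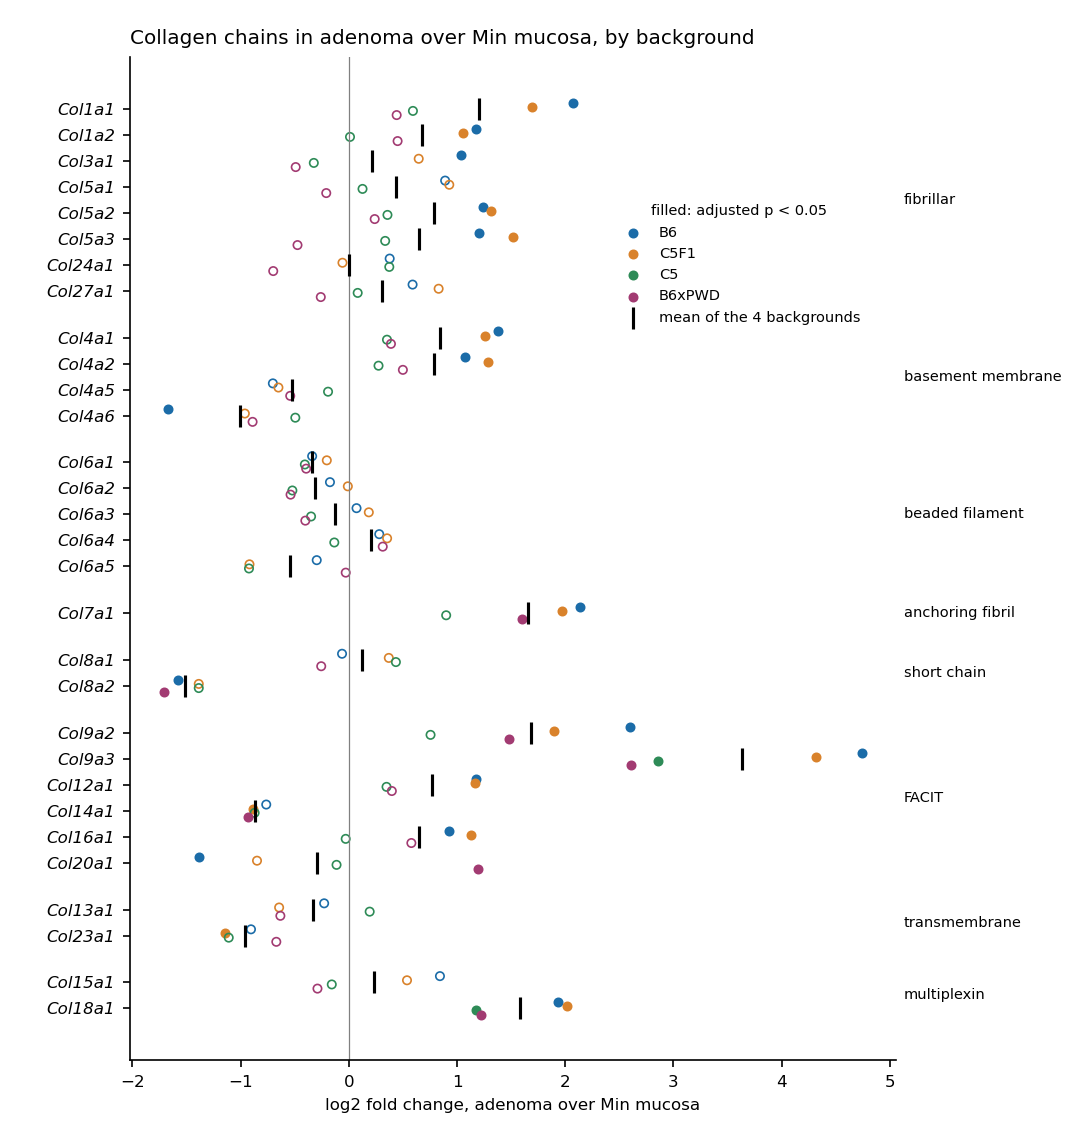
Log2 fold change, adenoma over Min mucosa, of the 30 tested collagen chains by structural class, points are the B6, C5F1, C5 and B6xPWD backgrounds (3 libraries a group), filled where the adjusted p was under 0.05, and the black bar is the mean of the backgrounds. Col9a3 and Col18a1 were called higher in every background, and most filled points of the fibrillar and Col4a1 and Col4a2 rows belong to B6 and C5F1.

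The FACIT chains held the largest change of any chain. Col9a3, a chain of type IX collagen, which is best known from cartilage (chromosome 2, 180597790 to 180622189), had 0.857, 4.84 and 10.8 CPM as lowest, median and highest of the 12 adenoma libraries, against 0, 0 and 0.328 CPM in Min mucosa. No Min mucosa library reached the lowest adenoma library, and the summed counts were 606 in adenoma and 5 in Min mucosa. The fitted change was 3.63 ± 0.23 (adjusted p = 2.49e-13, higher in 12 of 12 pairs), a value that depends on the prior count because Min mucosa is at 0 in 2 backgrounds. Col9a3 passed the filter on low counts through adenoma, so this test is not independent of the filter. Col9a3 had 2.68, 1.49 and 1.48 CPM in C5 adenoma and 0 in all C5 Min mucosa libraries, at least 14.2-fold higher against 3 counts over the group. By the same bound B6xPWD adenoma, with 0.857, 2.32 and 1.58 CPM, was at least 9.33-fold higher. In B6, 310 counts in adenoma stood against 1 in Min mucosa, a ratio of 165 with a 95% counting interval of 29.4 to 6543, which covers counting error only. Exons of Col9a3 share 234 bases with Tcfl5 on the opposite strand, and the strand setting of the counting is not given in the sources used here. Tcfl5 was not called (adjusted p = 0.780). Its partner Col9a2 had 0.171, 1.15 and 2.31 CPM in adenoma, against 0, 0.0614 and 0.438 CPM in Min mucosa (1.68 ± 0.24, adjusted p = 1.30e-06, 12 of 12 pairs). The ranges overlapped over all libraries, through 1 B6xPWD adenoma library. The Col9a2 promoter is shown because it holds letters that TCF factors of the Wnt pathway are known to bind. It covers 250 bases before to 50 after the RefSeq gene start (GRCm38.p6, chr4:121039316-121039615, plus strand), and capitals mark CTTTGAT and the GC box GGGCGG on either strand.
Col9a2: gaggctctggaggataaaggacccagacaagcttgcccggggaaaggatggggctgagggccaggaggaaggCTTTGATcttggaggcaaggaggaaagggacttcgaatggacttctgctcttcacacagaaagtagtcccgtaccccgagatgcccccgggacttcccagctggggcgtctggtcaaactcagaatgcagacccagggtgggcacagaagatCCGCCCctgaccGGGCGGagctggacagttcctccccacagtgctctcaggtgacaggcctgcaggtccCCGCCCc
CTTTGAT or CTTTGAA on either strand stood in the windows of 5 of the 34 chains with a promoter entry and in 8.65% of 32851 promoters of this length. Besides Col9a2 these chains were Col9a1, Col15a1, Col13a1 and Col6a2. Over the mean of the backgrounds, Col15a1 and Col13a1 were not called in adenoma, Col6a2 was called lower and Col9a1 was not tested. GGGCGG stood in those of 21 chains and in 35.7% of promoters. A match is a description of letters, not a binding site. Col9a3 had no entry.

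Among the other FACIT chains, Col12a1 had 20.1, 95.8 and 158 CPM in adenoma, against 14.3, 52.4 and 73.7 CPM in Min mucosa (change 0.77, adjusted p = 1.40e-04, higher in 11 of 12 pairs), and Col16a1 rose by 0.65 (adjusted p = 1.41e-04, 10 of 12 pairs). Col14a1, which binds fibrils and limits their thickness, went the other way, with 8.50, 14.4 and 24 CPM in adenoma, against 17.1, 28.0 and 40.4 CPM in Min mucosa (-0.86 ± 0.16, adjusted p = 3.06e-05). It was lower in 12 of 12 pairs, and within each background its adenoma libraries stood below its Min mucosa libraries. Col20a1 was not called over the mean (-0.29).

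Col18a1, the multiplexin of epithelial and vascular basement membranes whose end fragment is endostatin (chromosome 10, 77052178 to 77166548), had 17.8, 80.0 and 123 CPM as lowest, median and highest in adenoma, against 13.3, 22.9 and 32.2 CPM in Min mucosa. Ranges did not overlap in B6, C5F1 and C5, while 1 B6xPWD adenoma library, at 17.8 CPM, stood inside the Min mucosa range. The change was 1.59 ± 0.16 (adjusted p = 8.49e-10), higher in 12 of 12 pairs. The other multiplexin, Col15a1, had 4.06, 10.9 and 20.2 CPM in adenoma, against 2.19, 11.3 and 15.8 CPM in Min mucosa, and was not called (0.23). Without B6 Min mucosa replicate 3 it was called, at 0.52 (adjusted p = 0.0143). Col7a1, the anchoring fibril chain, was low, with 0.582, 0.896 and 3.58 CPM in adenoma and 0, 0.243 and 0.76 CPM in Min mucosa. It was higher in 11 of 12 pairs (1.65 ± 0.24, adjusted p = 1.45e-06), and within backgrounds the ranges overlapped only in C5F1, where 1 adenoma library had 0.582 CPM and 1 Min mucosa library 0.76 CPM.

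Type IV collagen split by pair. Col4a1 had 54.9, 180 and 335 CPM as lowest, median and highest in adenoma, against 38.6, 106 and 142 CPM in Min mucosa (0.85 ± 0.15, adjusted p = 1.77e-05, higher in 11 of 12 pairs). Its heterotrimer partner Col4a2 had 28.6, 109 and 170 CPM in adenoma, against 17.8, 58.7 and 80.5 CPM in Min mucosa (0.78, adjusted p = 1.07e-04, 9 of 12 pairs). The median ratio of Col4a1 to Col4a2 levels per kb was 1.69 in adenoma and 1.64 in Min mucosa. Col4a6, a chain known from basement membranes around smooth muscle, had 0.19, 1.49 and 2.57 CPM in adenoma, against 1.40, 3.18 and 3.91 CPM in Min mucosa (-1.0 ± 0.18, adjusted p = 1.98e-05). It was lower in 12 of 12 pairs, and its partner Col4a5 was lower in 10 of 12 (-0.52, adjusted p = 0.0226). Col4a1 and Col4a2 lie head to head on chromosome 8 and share the stretch between their starts, so both windows are shown. The starts, at 11312826 on the minus strand for Col4a1 and 11312805 on the plus strand for Col4a2, are 21 bases apart, and the windows (GRCm38.p6, chr8:11312777-11313076 and chr8:11312555-11312854) share 78 bases. Capitals mark CCAAT and GGGCGG on either strand.
Col4a1: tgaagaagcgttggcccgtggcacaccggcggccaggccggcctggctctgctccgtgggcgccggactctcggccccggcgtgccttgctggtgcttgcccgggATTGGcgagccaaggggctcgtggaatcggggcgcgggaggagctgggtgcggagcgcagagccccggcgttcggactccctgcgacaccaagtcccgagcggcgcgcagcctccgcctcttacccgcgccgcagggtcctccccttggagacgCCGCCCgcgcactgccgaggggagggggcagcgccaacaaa
Col4a2: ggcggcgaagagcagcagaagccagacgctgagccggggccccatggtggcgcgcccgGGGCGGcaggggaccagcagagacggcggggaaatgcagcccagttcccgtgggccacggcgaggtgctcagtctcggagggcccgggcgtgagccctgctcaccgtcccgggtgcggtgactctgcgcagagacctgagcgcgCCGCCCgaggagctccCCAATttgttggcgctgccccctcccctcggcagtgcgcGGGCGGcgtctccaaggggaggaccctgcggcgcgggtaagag
The Col4a1 window holds 37 CpG dinucleotides and the Col4a2 window 33, against a median of 7 over all promoters. CCAAT stood in the windows of 13 of 34 chains and in 37.4% of all promoters. Exons of this pair share 22 bases on opposite strands, so reads there cannot be told apart without strand.

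Of the 8 fibrillar chains tested, Col1a1, which makes up most of type I collagen, had the largest fitted change. It had 15.1, 60.3 and 132 CPM as lowest, median and highest in adenoma, against 9.13, 25.5 and 36.1 CPM in Min mucosa (1.20 ± 0.20, adjusted p = 1.06e-05, higher in 11 of 12 pairs). By library, B6 adenoma had 63.2, 132 and 111 CPM against 12.1, 32.3 and 27.5 CPM in B6 Min mucosa, and C5F1 adenoma had 67.8, 57.5 and 101 CPM against 23.6, 14.4 and 31.7 CPM in C5F1 Min mucosa. C5 adenoma had 30.6, 63.6 and 37.1 CPM against 29.9, 36.1 and 20.7 CPM in C5 Min mucosa, and B6xPWD adenoma had 23, 15.1 and 32.4 CPM against 14.4, 27.5 and 9.13 CPM in B6xPWD Min mucosa. The groups were apart in B6 and C5F1 and overlapped in C5 and B6xPWD. Col1a2, the second chain of type I, had 20.1, 82.2 and 128 CPM in adenoma and 17.8, 46.6 and 79.7 CPM in Min mucosa (0.67, adjusted p = 0.00183). The ratio of Col1a1 to Col1a2 levels per kb had a median of 1.43 and a range of 0.795 to 2.44 in adenoma, against 0.925 and 0.62 to 1.24 in Min mucosa. Col3a1, the chain of type III, had 47.7, 149 and 240 CPM in adenoma and 58.6, 135 and 196 CPM in Min mucosa, and was not called (0.22 ± 0.16, adjusted p = 0.265, higher in 7 of 12 pairs). The ratio of Col3a1 to Col1a1 levels per kb had a median of 1.97 in adenoma and 3.49 in Min mucosa. The ratios were not tested. The minor fibrillar chains Col5a2 (0.79, adjusted p = 2.20e-04), Col5a3 (0.65, adjusted p = 0.0257) and Col5a1 (0.43, adjusted p = 0.0488) were called higher. Col5a3 lost the call in 5 of 24 runs that each left out 1 library, and Col5a1 in 15 of 24.

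**Figure D2:**
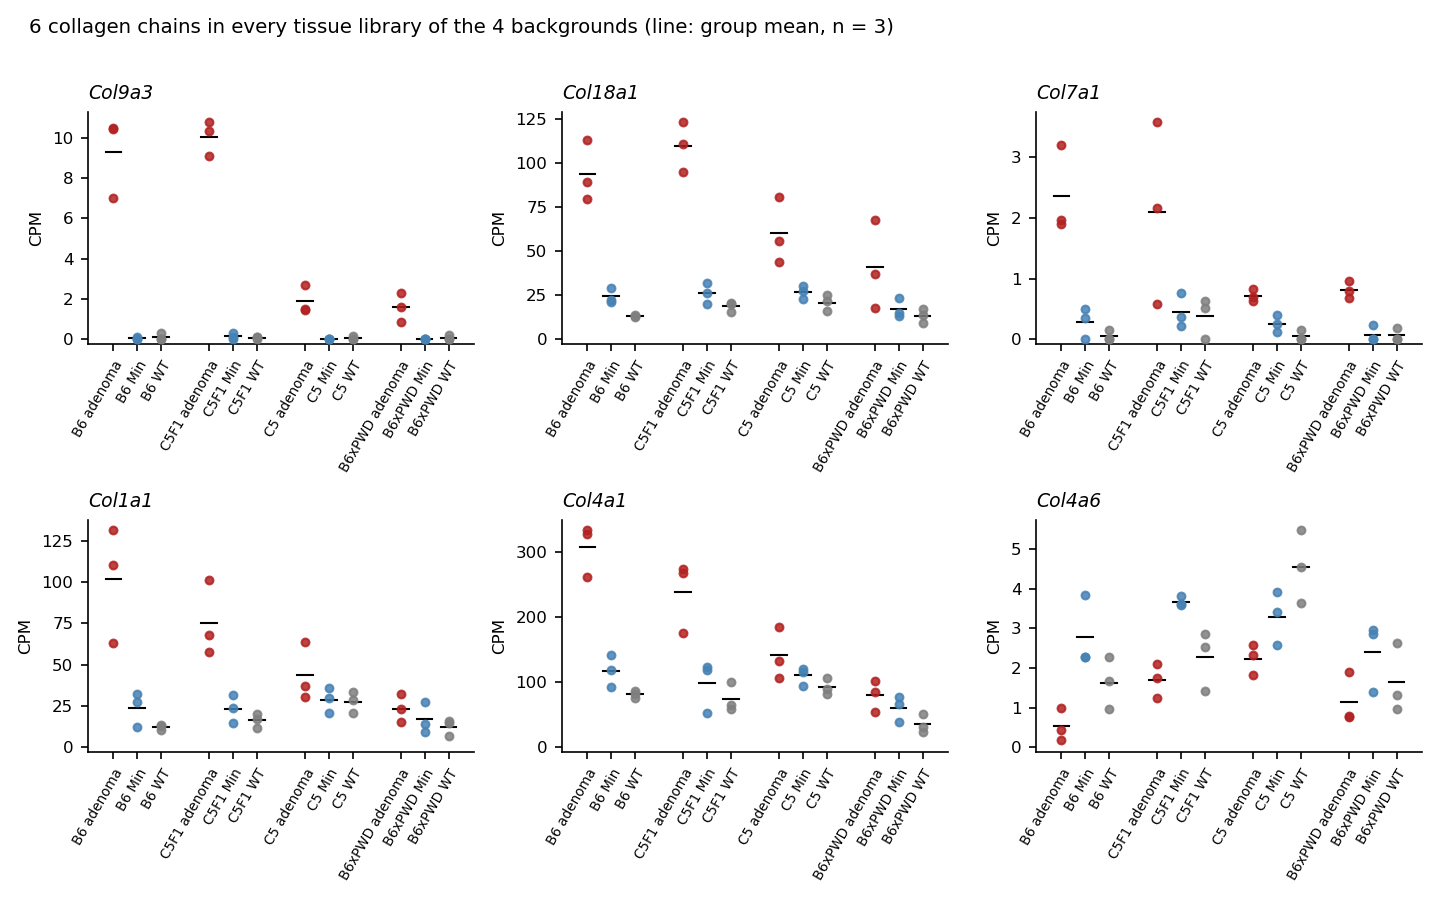
CPM of Col9a3, Col18a1, Col7a1, Col1a1, Col4a1 and Col4a6 in each library of adenoma, Min mucosa and wild-type mucosa (WT), by background, with a line at the mean of 3 libraries. Col9a3 lay between 0.857 and 10.8 CPM in adenoma and at or under 0.328 CPM in Min mucosa, and Col1a1 and Col4a1 were apart in B6 and C5F1 and overlapped in C5 and B6xPWD.

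The beaded filament chains were lower or not called. Col6a2 had 22.0, 53.9 and 70.1 CPM as lowest, median and highest in adenoma, against 33.7, 65.8 and 84.7 CPM in Min mucosa (-0.31, adjusted p = 0.0379, lower in 9 of 12 pairs), and Col6a5 changed by -0.54 (adjusted p = 0.0362). Each lost its call in at least 8 of 24 runs that left out 1 library. Col6a1 had 24.6, 69.2 and 92.4 CPM in adenoma and 41.4, 89.0 and 109 CPM in Min mucosa, with overlapping ranges. It missed the threshold (-0.34 ± 0.14, adjusted p = 0.0584) and passed it with wild-type libraries left out, without blocks (adjusted p = 0.0354) and with pairs as blocks (adjusted p = 0.0206). Of the short chain collagens, Col8a2 had 0.19, 0.417 and 1.32 CPM in adenoma, against 0.357, 2.41 and 3.75 CPM in Min mucosa (-1.51 ± 0.28, adjusted p = 3.83e-05, lower in 11 of 12 pairs), and Col8a1 was not called (0.12). Of the transmembrane chains, Col23a1 had 1.93, 3.68 and 5.48 CPM in adenoma, against 3.04, 7.29 and 12.5 CPM in Min mucosa (-0.96 ± 0.18, adjusted p = 5.13e-05, lower in 12 of 12 pairs). Col13a1 was not called (-0.33). Col6a3, Col6a4, Col27a1 and Col24a1 were not called either, with changes between -0.12 and 0.31.

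Levels of other cell types moved beside these chains. Counts of called markers over the mean stand against 23.7% of all genes higher and 21.5% lower. The 10 smooth muscle markers were all called lower in adenoma, with a sum of 135 to 1473 CPM and a median of 679 CPM, against 265 to 2972 CPM and 1690 CPM in Min mucosa. Of 11 fibroblast markers tested 2 were higher and 2 lower, with sums of 176 to 507 CPM in adenoma and 198 to 490 CPM in Min mucosa. Of 10 endothelial markers 4 were higher, with sums of 44.6 to 155 CPM in adenoma and 43.5 to 112 CPM in Min mucosa. Immune markers differed by background. In B6 adenoma Cd3e (-2.06), Emr1 (-1.40) and Itgam (-0.90) were lower, and in B6xPWD adenoma Cd79a (3.39) and Ptprc (1.76) were higher, while C5F1 and C5 had no immune call. Immune sums were 62.9 to 563 CPM in adenoma and 123 to 348 CPM in Min mucosa, and the highest belonged to B6xPWD adenoma replicate 1. The part of these cell types in the collagen values was not tested.

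The enzymes that build, join and cut collagen were read from lists, whose counts over the mean stand against 23.7% of all genes higher and 21.5% lower. Of the 11 hydroxylation and glycosylation genes tested, 5 were higher in adenoma and 2 lower. Plod3, a lysyl hydroxylase, had 15.8, 24.5 and 30.7 CPM as lowest, median and highest in adenoma and 8.89, 11.5 and 13.1 CPM in Min mucosa (change 0.97), and P4ha2, a prolyl hydroxylase subunit, had 1.89, 6.36 and 9.5 CPM against 0.936, 1.58 and 2.74 CPM in Min mucosa (1.64). Plod3 did not overlap between the groups. Of 8 folding and export genes 4 were higher and none lower, including the collagen-binding protein Sparc (0.75) and the chaperone Fkbp10 (0.61). All 3 called crosslinking genes of 6 were higher, namely Loxl4 (0.61), Lox (0.93) and Loxl2 (0.55). Of 5 collagenases and gelatinases 4 were higher. Mmp14, a membrane-bound collagenase, had 41.1, 107 and 225 CPM in adenoma, against 11.7, 23.6 and 60.1 CPM in Min mucosa (2.01), and Mmp13 changed by 2.30. Of 8 receptors 3 were higher, Ddr1 (0.78), Itga2 (0.60) and Mrc2 (0.46). Of 7 propeptide cleavage genes 3 were lower, the meprins Mep1b (-1.30) and Mep1a (-1.62), which enterocytes also make, and Tll1 (-0.60), and Bmp1 was higher (0.45). The mean covers unlike backgrounds. Bmp1 changed by 1.62 in B6 and -0.88 in B6xPWD (adjusted p = 0.0747), Lox by 1.53 in B6 and -0.42 in B6xPWD (adjusted p = 0.547) and Loxl2 by 1.07 in B6 and -0.18 in B6xPWD (adjusted p = 0.700), of which the changes in B6 were called. P4ha2, Mmp14 and Mmp13 were called higher in each of B6, C5F1, C5 and B6xPWD. Of 10 fibril regulators 3 were lower, Dpt (-1.42), Ogn (-1.79) and Tnxb (-1.01), and 3 higher, among them fibronectin, Fn1 (0.60). Dpt also stands in the fibroblast list.

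By background, 16 chains were called in B6, 13 higher and 3 lower, against 26.7% of all genes, of which 13% were higher and 13.7% lower. In C5F1 14 were called, 12 higher and 2 lower, where 20.5% of all genes were, 10.9% higher and 9.66% lower. C5 had 2 called chains, Col9a3 (2.86, adjusted p = 4.31e-05) and Col18a1 (1.17 ± 0.31, adjusted p = 0.0281), both higher, against 2.77% of all genes, 2.59% higher and 0.176% lower. B6xPWD had 7, where 16.4% were called, 9.43% higher and 6.98% lower, with Col9a3 (2.61), Col7a1 (1.60), Col9a2 (1.48), Col18a1 (1.23) and Col20a1 (1.19) higher and Col14a1 (-0.93) and Col8a2 (-1.70) lower. A second fit held the compared groups alone, with pairs as blocks and its own filter on low counts. In B6 it called 17 chains and 31.5% of all genes, and gained Col15a1 (1.14, adjusted p = 0.0297), Col5a1, Col14a1 and Col23a1. In C5F1 it called 18 chains and 37.7% of all genes, and gained Col27a1 (0.84, adjusted p = 0.0161), Col3a1 (0.66, adjusted p = 0.00231), Col5a1, Col15a1, Col4a6 and Col6a5. Of these 10 gains, all but Col15a1 in B6 and Col27a1 in C5F1 were also called in the compared groups without blocks. In that second fit C5 had 9 called chains, 2 higher and 7 lower, where 14.5% of all genes were called. Col1a1 (0.57), Col14a1 (-0.91), Col23a1 (-1.09), Col8a2 (-1.38), Col6a5 (-0.90), Col6a2 (-0.53), Col6a1 (-0.40) and Col6a3 (-0.35) were gained, none of which was called in the compared groups without blocks, and Col9a3 was not tested there because it fell under the filter. In B6xPWD the second fit called 0 chains and 10.4% of all genes, and the compared groups without blocks gave 0 chains as well, so 7 of 7 calls were lost in both. Of these Col14a1 (adjusted p = 0.0791 with blocks and 0.0973 without) and Col18a1 (0.102 and 0.126) missed the threshold, and Col20a1, Col7a1, Col8a2, Col9a2 and Col9a3 fell under the filter. Without C5F1 adenoma replicate 3 the C5F1 count was 9, without C5 adenoma replicate 1 the C5 count was 1, and without B6xPWD adenoma replicate 2 the B6xPWD count was 3. The B6xPWD gains of Col7a1 and Col9a2 rest on 12 and 10 counts in adenoma against 1 and 1 in Min mucosa, ratios of 14.6 (95% counting interval 2.16 to 625) and 12.2 (1.73 to 528), and that of Col20a1 on 6 against 0, at least 2.44-fold.

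Whether the adenoma effect itself differed from that in B6 was tested as an interaction. For C5F1 0 chains and 0% of all genes were called. For C5 0 chains were called and 0.11% of all genes, 0.0732% with a positive and 0.0366% with a negative difference, and for B6xPWD 0 chains and 0.63% of all genes, 0.476% positive and 0.154% negative. At an unadjusted p under 0.05 by edgeR there were 0, 7 and 7 of 30 chains for C5F1, C5 and B6xPWD, against 2.91, 9.34 and 11.8% of all genes. DESeq2 called 0, 0 and 2 chains among 1, 144 and 257 genes. The smallest p for B6xPWD belonged to Col20a1 (2.58, adjusted p = 0.0518). Its 3 B6xPWD adenoma libraries had 0.343, 0.773 and 0 CPM against 0 in each Min mucosa library, and B6 adenoma had 0.340, 0.570 and 0.214 CPM against 1.38, 0.958 and 2.10 CPM in B6 Min mucosa. Col3a1 (-1.53, adjusted p = 0.0885) and Col1a1 (-1.63, adjusted p = 0.179) followed. For C5 the smallest p belonged to Col3a1 (-1.36 ± 0.44, adjusted p = 0.213), Col1a1 (-1.48, adjusted p = 0.307) and Col16a1 (-0.96, adjusted p = 0.311). For C5F1 they belonged to Col9a2 (-0.70), Col4a6 (0.71) and Col9a3 (-0.42), each with an adjusted p of 1.0. Col3a1 had 118, 153 and 127 CPM in C5 adenoma against 155, 196 and 146 CPM in C5 Min mucosa, and 182, 146 and 240 CPM in B6 adenoma against 58.6, 95.3 and 121 CPM in B6 Min mucosa. It was higher in adenoma in 3 of 3 pairs in B6 and 0 of 3 in C5. In the compared groups with pairs as blocks, 6 of 29 chains were called, where 4.63% of all genes were. Each had a lower log2 fold change in C5 than in B6. They were Col1a1 (difference -1.56 ± 0.24, adjusted p = 0.00291), Col1a2 (-1.22, adjusted p = 0.00331), Col3a1 (-1.40, adjusted p = 0.00533), Col4a1 (-1.07, adjusted p = 0.0115), Col12a1 (-0.85, adjusted p = 0.0190) and Col4a2 (-0.84, adjusted p = 0.0441). In the same groups without blocks none of the 6 was called, with adjusted p between 0.0986 for Col3a1 and 0.290 for Col4a2. These comparisons share the B6 libraries.

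Min mucosa was set against wild-type mucosa to ask what the APC min allele does in tissue without a tumour. No chain of 30 was called by edgeR, as for 0.00732% of all genes, which is 1 gene, the prolyl hydroxylase subunit P4ha1 (0.83, adjusted p = 0.0266). At an unadjusted p under 0.05 there were 20 of 30 chains (66.7%) against 7.43% of all genes, DESeq2 called 3 chains among 23 genes, and 27 of 30 changes were above 0. The median change was 0.47 over the chains and -0.002 over all genes. The smallest p belonged to Col12a1 (0.71 ± 0.16, adjusted p = 0.121), Col14a1 (0.69 ± 0.16, adjusted p = 0.121) and Col6a2 (0.51 ± 0.12, adjusted p = 0.157). Col12a1 had 14.3, 52.4 and 73.7 CPM as lowest, median and highest in Min mucosa, against 11.8, 24.8 and 64.6 CPM in wild-type libraries. Col14a1 had 17.1, 28.0 and 40.4 CPM in Min mucosa, against 11.2, 16.9 and 25.9 CPM in wild-type libraries. Both ranges overlapped. Fibroblast marker sums had medians of 341 CPM in Min mucosa and 306 in wild-type mucosa, and endothelial sums 87.1 and 70.9 CPM, with none of these markers called. Their part was not tested.

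Among wild-type backgrounds PWD stood apart from B6 in its collagen. In PWD mucosa 15 of 30 chains were higher and none lower, against 18.7% of all genes called, 9.96% higher and 8.79% lower, and the median change was 1.11 over the chains and 0 over all genes. Higher were 5 of 5 beaded filament chains, 4 of 8 fibrillar, 3 of 4 basement membrane, both multiplexins and 1 of 6 FACIT chains tested. Col6a5, a type VI chain (chromosome 9, 105856078 to 105960643), had 52.1, 26.4 and 30.7 CPM in PWD libraries, against 3.17, 4.32 and 7.94 CPM in B6 libraries (2.90 ± 0.46, adjusted p = 2.95e-05). The groups were far apart. Col6a2 had 107, 94.9 and 104 CPM in PWD, against 32.7, 30.4 and 49.3 CPM in B6 (1.47 ± 0.25, adjusted p = 8.84e-05), again without overlap.

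Col14a1 had 107, 66.1 and 33.4 CPM in PWD, against 16.9, 14.9 and 25 CPM in B6 (1.90 ± 0.32, adjusted p = 5.85e-05). The PWD libraries spread widely and still lay above each B6 library. Col18a1 had 65.0, 51.7 and 31.0 CPM in PWD, against 12.7, 13.1 and 13.6 CPM in B6 (1.89 ± 0.33, adjusted p = 1.11e-04). Col15a1 had 16.5, 20.2 and 15.2 CPM in PWD, against 2.72, 2.24 and 3.40 CPM in B6 (2.59 ± 0.49, adjusted p = 2.47e-04). Both multiplexins were without overlap. Of the type IV chains, Col4a6 had 4.82, 4.76 and 4.86 CPM in PWD, against 1.66, 0.960 and 2.27 CPM in B6 (1.51, adjusted p = 0.00480), and Col4a5 had 7.11, 8.80 and 6.38 CPM in PWD, against 2.57, 1.28 and 3.40 CPM in B6 (1.64, adjusted p = 0.00564). The chains Col4a5 and Col4a6, lower in adenoma, were thus higher in PWD mucosa, and Col4a1 was not called in PWD. Col4a2 was called (1.21, adjusted p = 0.00770).

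Of the fibrillar chains in PWD, Col5a2 had 38.1, 17 and 17.6 CPM, against 7.54, 5.6 and 12.5 CPM in B6 (1.58, adjusted p = 0.00198), Col5a1 had 32.8, 21.6 and 26.1 CPM, against 10.3, 6.72 and 12.5 CPM in B6 (1.48, adjusted p = 0.00762), and Col3a1 had 259, 130 and 130 CPM, against 78.5, 58.2 and 85.1 CPM in B6 (1.23, adjusted p = 0.00645). In each of these the groups did not overlap. Col6a1 (1.10), Col6a3 (1.18), Col1a2 (1.13) and Col6a4 (1.01) completed the 15, with adjusted p between 0.00841 and 0.0347. Col1a1, at 30.7, 13.1 and 17.9 CPM in PWD and 13.4, 12.8 and 10.2 CPM in B6, was not called. Without B6 wild-type replicate 2 the count was 8. Fibroblast marker sums were 418 to 498 CPM in PWD and 292 to 326 CPM in B6, endothelial sums 101 to 135 CPM in PWD and 69.3 to 81.7 CPM in B6, and smooth muscle sums 1267 to 1754 CPM in PWD and 1175 to 1581 CPM in B6. Immune marker sums were 345.8 to 616.5 CPM in PWD and 119.5 to 485 CPM over B6, C5F1, C5 and B6xPWD wild-type mucosa. Of the immune markers Lyz2 (2.50) and Csf1r (1.30) were called higher in PWD than in B6, and none lower. Their part was not tested. Of the pathway genes, the collagen chaperone Serpinh1 (1.32), the propeptide cleavage genes Adamts3 (1.86), Bmp1 (1.41), Adamts2 (1.59) and Tll1 (1.68), Lox (1.63) and Loxl4 (1.07) were higher in PWD, and Crtap, a prolyl hydroxylation factor, was lower (-1.27). Of the receptors Itga2 was lower (-1.585) and Itga11 higher (1.398). Mmp9 (1.145), Mmp2 (0.839) and the fibril regulator Dpt (1.08) were also higher. Of all genes, 9.96% were called higher and 8.79% lower.

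**Figure D3:**
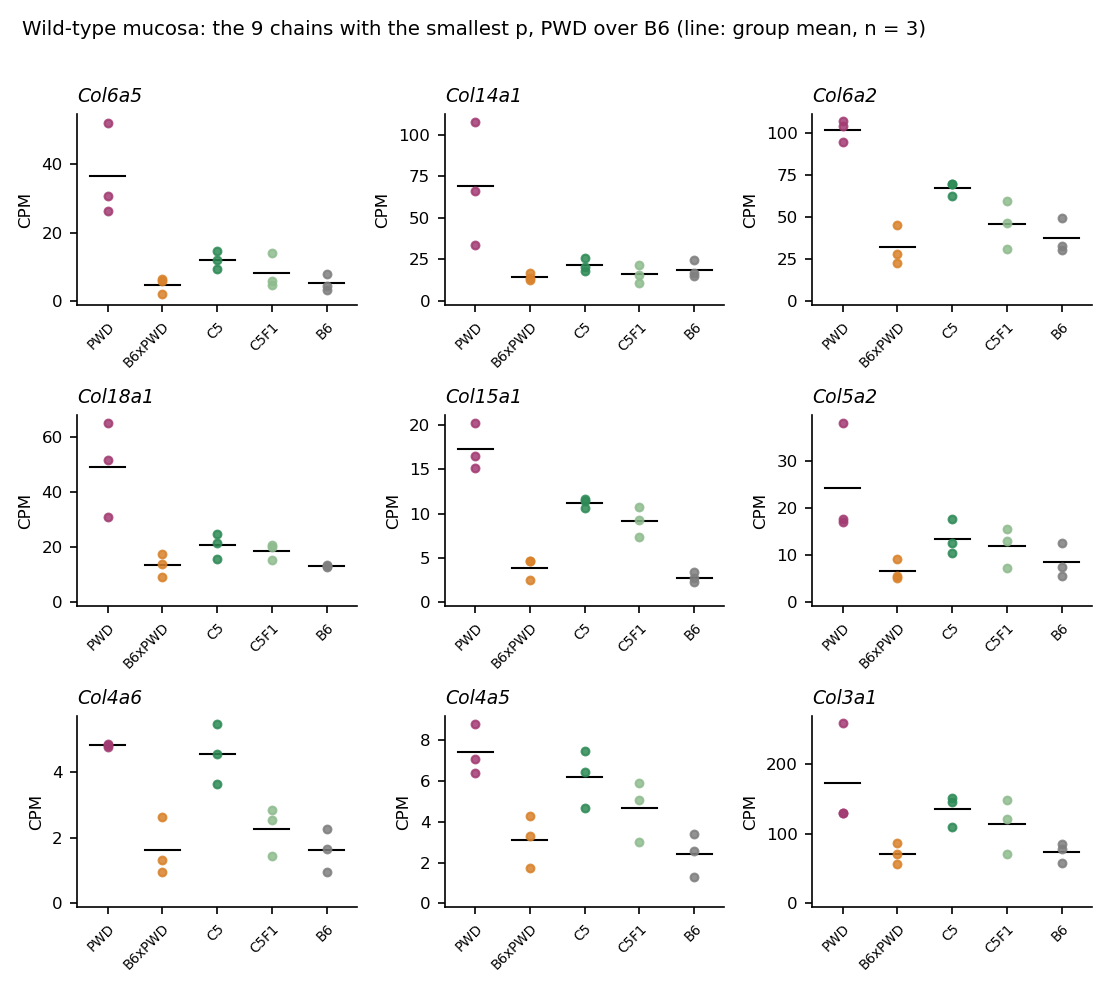
CPM in each wild-type mucosa library of PWD, B6xPWD, C5, C5F1 and B6 for the 9 chains with the smallest p in PWD over B6, with a line at the mean of 3 libraries. In each panel the PWD libraries lie above the B6 libraries.

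The other wild-type backgrounds gave few calls against the same B6 libraries. In C5, 3 chains were higher (1.47% of all genes were called, 0.996% higher and 0.476% lower). Col12a1 had 36.3, 64.6 and 49.1 CPM in C5, against 26.3, 11.8 and 21.6 CPM in B6 (1.34 ± 0.33, adjusted p = 0.0338), Col15a1 had 11.4, 10.6 and 11.6 CPM in C5 (1.96 ± 0.49, adjusted p = 0.0374), and Col4a6 had 3.63, 5.48 and 4.55 CPM in C5 (1.47 ± 0.38, adjusted p = 0.0408), with the B6 values of the last 2 as above. None of the 3 overlapped B6, and without B6 wild-type replicate 2 the count was 0 and without replicate 3 it was 6. In C5F1 neither edgeR nor DESeq2 called a chain (0 each, and 0.022% of all genes by edgeR), and 7 of 30 chains had an unadjusted p under 0.05, against 11.5% of all genes. The smallest p belonged to Col15a1, with 9.30, 7.4 and 10.8 CPM in C5F1 (1.68 ± 0.49, adjusted p = 0.151), Col12a1, with 47.4, 23.4 and 48.9 CPM (0.99, adjusted p = 0.236), and Col5a1, with 19.5, 11.2 and 24.3 CPM (0.93, adjusted p = 0.356). Col15a1 did not overlap B6, and the other chains did. B6xPWD, which carries 1 PWD genome copy, had 1 lower chain against 9.6% of all genes called, 5.29% higher and 4.31% lower. Col4a1 had 30.7, 23.1 and 51.4 CPM in B6xPWD, against 82.4, 75.2 and 86.8 CPM in B6 (-1.20 ± 0.30, adjusted p = 0.0105), and the call was lost without B6xPWD wild-type replicate 2. Next in p were Col23a1 (-1.09, adjusted p = 0.0733) and Col6a1 (-0.60, adjusted p = 0.216), both not called. Endothelial marker sums were 28.5 to 39.1 CPM in B6xPWD and 69.3 to 81.7 CPM in B6, and fibroblast sums 162 to 208 CPM in B6xPWD and 292 to 326 CPM in B6. Their part was not tested.

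Control organoids were set against Min mucosa of B6 and C5 in 1 fit over all libraries, whose joint scale the CPM of this comparison use, to see which chains are detected in cultured epithelium. Tissue and culture also differ in library make-up, such as the Rn45s share, which cannot be told apart from the tissue itself. Of 40 chains tested, 28 were lower in organoids and 1 higher (72.5% called, against 73.8% of all genes, 32.8% higher and 41% lower). The median change was -3.37 over the chains and -0.14 over all genes. Col6a1 had 0, 0 and 0.131 CPM as lowest, median and highest of 4 organoid libraries, against 87.7, 104 and 124 CPM in 6 Min mucosa libraries, or 2 counts against 3999. The ratio was 2617-fold lower, with a 95% counting interval of 724 to 21620. Col3a1 had 0, 0.0328 and 1.29 CPM in organoids, against 66.8, 148 and 218 CPM in Min mucosa (-8.06 ± 0.43, adjusted p = 4.92e-18), and Col4a1 had 0, 0.197 and 0.941 CPM, against 106, 131 and 161 CPM in Min mucosa (-7.70 ± 0.44, adjusted p = 1.39e-17). No organoid library came near the Min mucosa range of these chains. Col6a2 (-7.47), Col12a1 (-7.09), Col6a3 (-7.41), Col1a2 (-6.88), Col4a2 (-6.83), Col6a4 (-6.58) and Col14a1 (-5.75) were of like size. Col4a6 and Col8a2 had no count in the organoids, at least 55.9-fold and 42.3-fold lower than Min mucosa against 3 counts over the group.

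Other chains stayed detectable in culture. On the joint scale Col18a1 had 0.0856, 1.09 and 2.48 CPM in organoids, against 24.4, 27.7 and 33.5 CPM in Min mucosa, and was called lower. Col4a3, a chain of specialised basement membranes, had 0.694, 1.26 and 2.96 CPM in organoids and 0.287, 1.19 and 3.80 CPM in Min mucosa, and Col17a1 had 0, 0.405 and 2.03 CPM in organoids and 0.280, 0.567 and 1.16 CPM in Min mucosa. Neither was called, and both overlapped. Col11a2 had 0, 0.951 and 2.08 CPM in organoids and 0, 0.206 and 0.388 CPM in Min mucosa. Col19a1, a FACIT chain, was the 1 chain called higher, with 28 counts in organoids and 0 in Min mucosa, at least 7.13-fold, and the call was lost without B6 control organoid replicate 2. Col19a1 passed the filter on low counts through organoids, where it was high. Col9a1 had 21 counts in organoids and 0 in Min mucosa and did not pass the filter. All 12 fibroblast, 10 smooth muscle, 10 endothelial and 8 immune markers were called lower in organoids, and 8 of 10 epithelial markers were called lower and 1 higher.

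**Figure D4:**
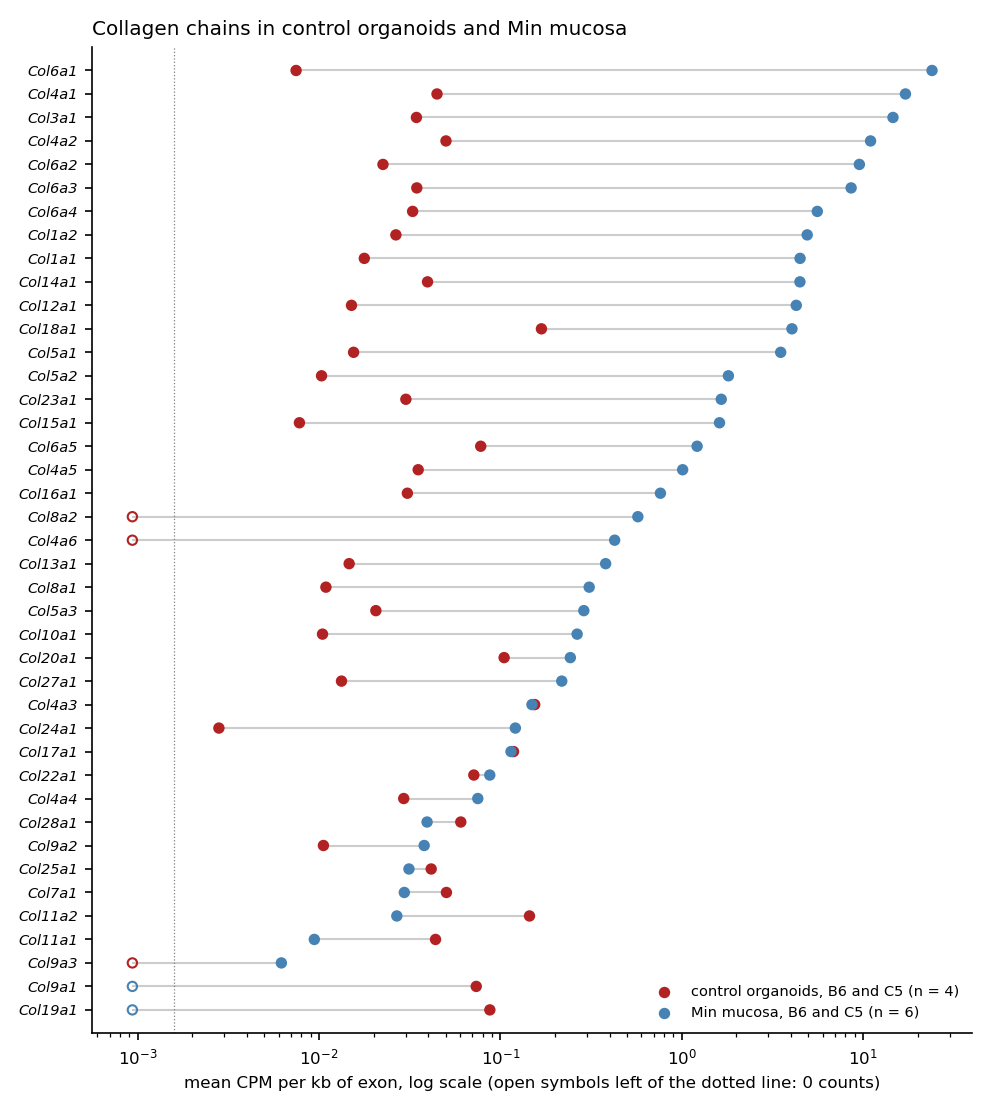
Mean level of each of the 41 collagen chains on the joint scale, in CPM per kb of exon on a log axis, in control organoids (n = 4, red) and Min mucosa (n = 6, blue) of B6 and C5, ordered by Min mucosa, with open symbols for 0 counts. The chains at the top of the Min mucosa order lie far to the left in organoids, and Col4a3, Col17a1 and Col11a2 do not.

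AZA was set against control organoids to ask which chains differ after a DNA methyltransferase inhibitor. Over the mean of B6 and C5, 3 of the 22 chains tested were higher and none lower (13.6%), against 28.5% of all genes called (levels are again on the organoid scale), 15% higher and 13.5% lower. Col28a1, a chain related to type VI collagen, had 4.62 and 4.32 CPM in B6 AZA, against 0 and 0 CPM in B6 control organoids, and 23 and 32.4 CPM in C5 AZA, against 1.68 and 0.339 CPM in C5 control organoids. Each AZA library lay above each control library. The change was 4.20 ± 0.49 (adjusted p = 2.28e-05), and in B6, with 52 counts against 0, it was at least 20.6-fold. Col12a1 had 3.25 and 1.04 CPM in B6 AZA, against 0 and 0 CPM in B6 control, and 4.64 and 7.53 CPM in C5 AZA, against 0.674 and 0.903 CPM in C5 control (2.76 ± 0.75, adjusted p = 0.0135), also without overlap. Col19a1 had 1.54 and 4.32 CPM in B6 AZA, against 0 and 1.02 CPM in B6 control, and 6.95 and 11.4 CPM in C5 AZA, against 2.19 and 0.903 CPM in C5 control (2.17 ± 0.78, adjusted p = 0.0483). Col19a1 did not overlap within a background and lost the call in 4 of 8 runs that each left out 1 library. Col28a1, Col12a1 and Col19a1 passed the filter on low counts through AZA libraries, where they were high. DNA methyltransferases, which AZA inhibits, methylate CpG dinucleotides. The promoter windows of Col28a1 (GRCm38.p6, chr6:8192568-8192867, minus strand) and Col19a1 (chr1:24587388-24587687, minus strand) are therefore shown with CpG in capitals. Methylation was not measured here.
Col28a1: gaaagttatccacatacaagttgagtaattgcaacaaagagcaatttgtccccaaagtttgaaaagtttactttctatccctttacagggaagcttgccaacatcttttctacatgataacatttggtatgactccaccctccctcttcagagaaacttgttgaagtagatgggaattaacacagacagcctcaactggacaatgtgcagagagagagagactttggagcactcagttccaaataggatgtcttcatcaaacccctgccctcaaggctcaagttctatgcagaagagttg
Col19a1: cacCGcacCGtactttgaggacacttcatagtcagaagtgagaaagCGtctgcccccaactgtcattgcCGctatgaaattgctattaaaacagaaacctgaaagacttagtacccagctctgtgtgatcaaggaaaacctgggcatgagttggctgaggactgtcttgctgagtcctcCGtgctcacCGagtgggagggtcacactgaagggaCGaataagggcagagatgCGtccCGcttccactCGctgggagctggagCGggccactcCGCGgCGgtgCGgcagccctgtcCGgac
The Col28a1 window holds 0 CpG and that of Col19a1 16, against a median of 7 over all promoters.

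In B6 alone Col28a1 (3.94 ± 0.66, adjusted p = 0.00108) and Col12a1 (2.98 ± 0.95, adjusted p = 0.0469) were called, against 16.1% of all genes, 9.2% higher and 6.91% lower. In C5 alone Col28a1 was called (4.46 ± 0.71, adjusted p = 8.81e-04), where 14.6% were, 8.06% higher and 6.49% lower. Col12a1 in B6 lost its call in 3 of 4 runs that left out 1 library. No difference in AZA effect between C5 and B6 was called for a chain by edgeR or DESeq2 (0 of 22, 0% of all genes by edgeR, 2 chains at an unadjusted p under 0.05 against 4.55% of all genes). The smallest p belonged to Col11a1, with 0.145 and 0.228 CPM in C5 AZA against 2.36 and 1.47 CPM in C5 control, and 2.91 and 2.59 CPM in B6 AZA against 0 and 0 CPM in B6 control (difference -5.47, adjusted p = 0.999), then Col6a4 and Col1a2. Col11a1 thus moved in opposite directions without passing the test. Col18a1 had 8.05 and 5.36 CPM in B6 AZA, against 2.89 and 0.146 CPM in B6 control, and 8.26 and 5.71 CPM in C5 AZA, against 4.21 and 0.903 CPM in C5 control, and was not called (1.66 ± 0.71, adjusted p = 0.0966). Col27a1 was not called either (2.38, adjusted p = 0.0606). Between C5 and B6 control organoids no chain was called by edgeR or DESeq2 (0 called, 0.209% of all genes by edgeR, 0.127% higher and 0.0821% lower, 3 chains at an unadjusted p under 0.05 against 5.73% of all genes), with the smallest p for Col28a1 (2.03, adjusted p = 0.437), Col11a1 (2.84, adjusted p = 0.761) and Col12a1 (1.83, adjusted p = 0.812).

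The collagen sum was 52.0 to 138 CPM in AZA organoids and 14.4 to 40.6 CPM in control organoids. Fibroblast marker sums were 97.1 to 128 CPM in AZA and 28.2 to 41.8 CPM in control organoids. Fbln1, Pdgfrb and Vim were called of 4 tested, where 15% of all genes were called higher. Smooth muscle sums were 134 to 221 CPM in AZA and 51.9 to 99.9 CPM in control organoids. Single genes weighed heavily in these sums, with a mean log2 CPM of 6.94 for Mylk and 5.63 for Fbln1. Mylk was the only smooth muscle marker called in B6 (1.14) and C5 (1.40) alone. Smtn changed by -1.26 in B6 and -0.55 in C5 and was not called. The part of these markers in the collagen values was not tested. Of the pathway genes, the prolyl hydroxylase subunit P4hb (0.58) and the prolyl hydroxylase Leprel2 (2.81, with 0 counts in each control) were higher after AZA, and P4ha2 (-1.75) and P4ha1 (-0.83) lower. The meprins Mep1b (4.15) and Mep1a (2.05) and the receptors Ddr1 (0.61) and Itga1 (0.64) were higher, and Itga2 (-0.57) and Mmp14 (-0.59) lower. None of the 2 crosslinking genes tested was called.

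**Figure D5:**
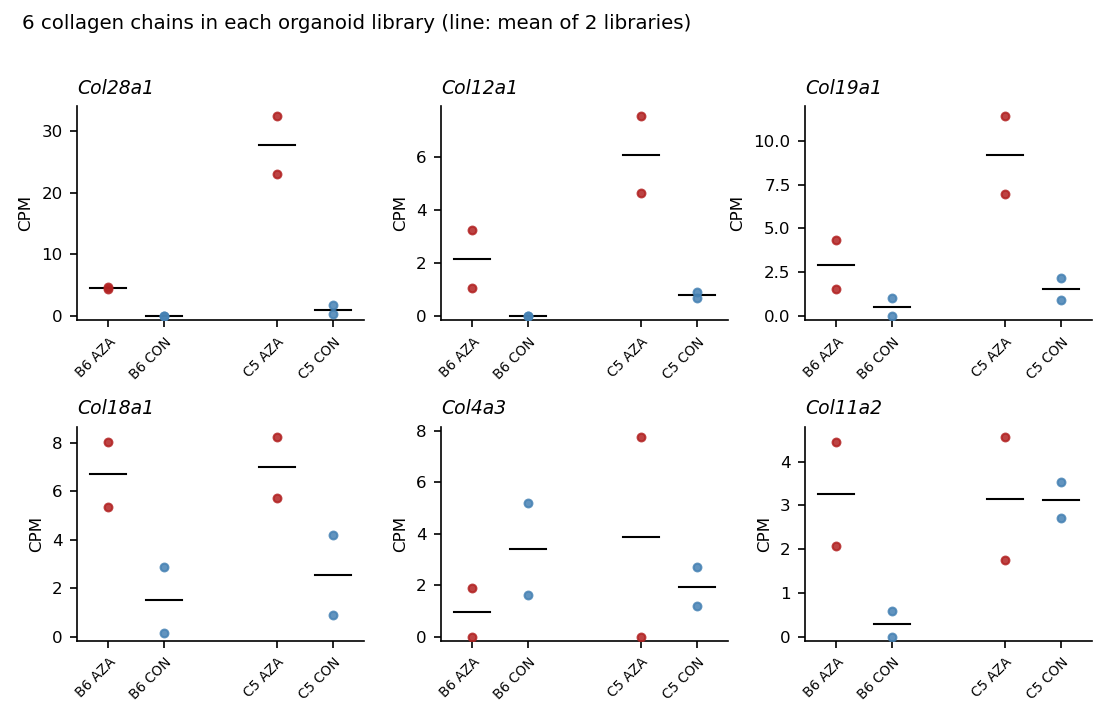
CPM of Col28a1, Col12a1, Col19a1, Col18a1, Col4a3 and Col11a2 in each organoid library, AZA left of control (CON), for B6 and C5, with a line at the mean of 2 libraries. Col28a1 lay between 4.32 and 32.4 CPM after AZA and at or under 1.68 CPM in controls, while Col4a3 and Col11a2 overlapped between AZA and control in C5.

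The 11 chains that did not pass the filter in tissue were Col28a1, Col4a3, Col4a4, Col11a1, Col11a2, Col17a1, Col10a1, Col22a1, Col19a1, Col25a1 and Col9a1, and they had no test there. On the tissue scale their highest value in a library was 3.56 CPM, for Col4a4 in PWD. Col11a2, a fibrillar chain best known from cartilage, had 0.211, 0.905 and 2.56 CPM as lowest, median and highest in adenoma (114 counts), against 0, 0.185 and 0.657 CPM in Min mucosa (18 counts). Col28a1 had 59 counts in adenoma and 14 in Min mucosa, and Col9a1, the third chain of type IX, had 20 and 1. Col4a3 had 0, 0.724 and 0.933 CPM in adenoma, against 0.234, 1.06 and 3.41 CPM in Min mucosa. The ranges overlapped for each of Col11a2 and Col4a3. Col19a1 had 4 counts over all 39 tissue libraries and 160 over the 8 organoid libraries.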

How the data were processed

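RNA of 39 tissue and 8 organoid libraries was depleted of ribosomal RNA and sequenced single-end, per the labels' protocols. The authors deposited raw read counts per gene symbol, made with BWA, mm10 and HTSeq per the submitters' processing notes. Versions, gene annotation and strand setting are not given in the sources used here. Rows that name no gene, equal to 40.7 to 53.9% of all counted reads in tissue and 46.4 to 63.5% in organoids, were left out.

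Counts were fitted with edgeR 4.0.16 (limma 3.58.1, R 4.3.3) by the quasi-likelihood test with TMM normalisation, filterByExpr (minimum count 10, minimum total 15), prior count 2 and Benjamini-Hochberg adjustment over all genes tested, in 3 fits over tissue (13657 genes), organoids (13395) and all libraries (15202). Adjusted p under 0.05 was a call. SE is the log2 fold change divided by the square root of F. DESeq2 1.42.0, its size factors, no filter on low counts, Rn45s left out, the compared groups alone, a replicate block (also in the compared groups alone) and leaving out each library were alternatives. Scripts were tested on simulated data. Tables and figures used Python 3.11.15, pandas 2.3.3, numpy 2.4.6 and matplotlib 3.10.9.

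Same-numbered adenoma and Min mucosa libraries deviated together in 12 of 12 pairs (correlation of deviations 0.107 to 0.455), so their numbers were used as pairs. Same-numbered Min and wild-type mucosa libraries, which cannot come from the same mouse, had correlations of -0.269 to 0.256. The B6 adenoma pairs, at 0.107 to 0.208, lay inside that range. The pairing is thus inferred and not established. The labels do not say what a number marks.

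Named chains were, in adenoma against Min mucosa, up to 10 with the smallest p and the 2 with the highest level per kb of each class, and elsewhere the called chains up to 10, or the 3 smallest p where fewer than 3 were called. Where pathway genes were named, up to 4 called genes of a list were taken by smallest p. Pathway genes were not named in every comparison, so a list left unnamed can hold calls. In wild-type mucosa against B6, for example, Ddr1 was called higher in C5 (1.28) and B6xPWD (1.14). The chains and lists were chosen with earlier results of these data known. Other chains, Col11a2, Col4a3, Col17a1 and Col9a1 among them, were named after their values were seen. Exon lengths and positions are from GENCODE vM21 (GRCm38), promoters from RefSeq (GRCm38.p6). Counting intervals are exact 95% intervals, and bounds against a count of 0 use 3 counts over the group.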

Additional observations from a re-analysis of the deposited data

Results flagged for a closer look

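The adenoma effect on 6 of 29 chains tested differed between C5 and B6 when the compared groups were fitted with same-numbered libraries as blocks, where 4.63% of all genes were called, by a test of the difference itself with edgeR. The differences, C5 minus B6 in log2 fold change, were -1.56 ± 0.24 for Col1a1 (adjusted p = 0.00291), -1.22 ± 0.19 for Col1a2 (adjusted p = 0.00331), -1.40 ± 0.24 for Col3a1 (adjusted p = 0.00533), -1.07 ± 0.21 for Col4a1 (adjusted p = 0.0115), -0.85 ± 0.18 for Col12a1 (adjusted p = 0.0190) and -0.84 ± 0.22 for Col4a2 (adjusted p = 0.0441). In the same groups without the block none of the 6 was called (adjusted p 0.0986 to 0.290). In the fit over all tissue groups edgeR called 0, with 7 of 30 chains at an unadjusted p under 0.05 against 9.34% of all genes, and DESeq2 called 0. Adenoma libraries were above the same-numbered Min mucosa libraries in 3 of 3 pairs in B6 for each of the 6 chains. The pairing is inferred from the numbers. In C5 they were above in 3 of 3 pairs for Col1a1, Col4a1 and Col12a1, 2 for Col1a2, 1 for Col4a2 and 0 for Col3a1.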

How the results depend on the processing

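Over 113 calls of a chain in a comparison, the alternatives gave 1799 values, of which 1631 kept call and direction, 168 lost the call and 0 reversed. A called chain that fell under the filter of an alternative gave no value and is not among the 168. With the replicate block this held for 5 of the 7 calls for adenoma in B6xPWD. Named chains that were not called gave 719 values. Of these 27 gained a call in the same direction, 12 changed sign without a call and 0 changed sign with a call.

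Counts of called chains moved as follows, and the causes were not tested. With DESeq2 they were 2 for the B6xPWD difference in adenoma effect (257 genes called) and 3 for Min against wild-type mucosa (23 genes). Against B6 mucosa they were 6 for C5 (334 genes) and 2 for B6xPWD (1473 genes), and for AZA in B6 5 (2422 genes). Apart from DESeq2 and the adenoma fits with pairs as blocks, calls over all genes are not given for the alternatives or for leaving out libraries. A moved count there cannot be told apart from a shift in calls over all genes. DESeq2 size factors gave 1 for the B6xPWD difference. With the compared groups alone, adenoma gave 1 in C5 and 0 in B6xPWD, Min against wild-type mucosa 1, and wild-type C5 1 and B6xPWD 0. Without a filter on low counts AZA gave 5. The replicate block was fitted in the compared groups alone, so 2 choices change together. It gave 9 for adenoma in C5, where the compared groups without it gave 1, 0 in B6xPWD, where they also gave 0, and 6 for the C5 difference, where they gave 0. Elsewhere same-numbered libraries were not taken as pairs. There the block gave 0 for wild-type C5, 0 for B6xPWD, 5 for PWD (10 without it in the same groups) and 1 for AZA in B6 (3 without it). The block changed no other count by over 1.5 times. C5 and B6 control organoids share no number.

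Leaving out 1 library at a time gave 18 to 22 calls for adenoma over the mean, 14 to 16 in B6, 9 to 12 in C5F1, 1 to 3 in C5 and 3 to 8 in B6xPWD. It gave 0 to 2 for the B6xPWD difference, 0 to 6 for wild-type C5, 0 to 2 for B6xPWD and 8 to 16 for PWD. Organoids gave 2 to 5 for AZA over the mean, 1 to 2 in B6, 1 in C5, 0 to 1 for C5 against B6 controls and 28 to 31 against Min mucosa. The remaining comparisons stayed at 0. Depth limits chains at a few counts most, and their counts stand beside their folds.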
